A study of Homo sapiens with 6 samples.

Results

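The mRNAs of the mitochondrial ribosomal proteins were followed between RNA bound by phosphorylated UPF1 (p-UPF1) and its control. The members were the genes of the count table whose symbol is MRPL or MRPS followed by a number, with or without a final A or B, and no measured value entered that choice. They numbered 76 of 26364 genes, 48 of them MRPL (large subunit) and 28 MRPS (small subunit). The study sequenced RNA fragments of HEK293T cells, a transformed line of human embryonic kidney origin, to find fragments of mRNAs that undergo nonsense-mediated mRNA decay (NMD). The p-UPF1 IP libraries (replicates 3, 6 and 9) hold RNA from an immunoprecipitation with an antibody against p-UPF1. The control libraries (replicates 1, 4 and 7) are titled pre-IP, but their antibody label names rabbit IgG, so the labels conflict on whether they hold input RNA or a mock precipitate. They are called pre-IP here, by their title. Every culture of both groups received 200 nM okadaic acid for 3 h, a phosphatase inhibitor that keeps UPF1 phosphorylated, and no untreated cells were among the 6 libraries. Nothing in the labels places the replicates in separate cultures. The p-values therefore measure no more than the variation among these libraries, and that may be technical.

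Mitochondrial ribosomal proteins are encoded in the nucleus, made on cytosolic ribosomes and imported into mitochondria, where they assemble with mitochondrial rRNAs. The finished ribosome translates the few mRNAs of the mitochondrial genome, which encode core subunits of the respiratory chain and ATP synthase. Many of the proteins have bacterial counterparts and others occur only in mitochondria. The subgroups follow the symbols, although MRPS18A and MRPS30 have been found in the large subunit. UPF1 is the RNA helicase at the centre of NMD. It is phosphorylated by SMG1 on mRNAs whose translation ends too early, but it also binds many other mRNAs.

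Total counts were 2057647, 1840194 and 905926 in p-UPF1 IP replicates 3, 6 and 9, and 1179369, 600244 and 945005 in pre-IP replicates 1, 4 and 7. UPF1 mRNA itself had 94.7, 85.9 and 135 CPM (read counts scaled to a common library size) in p-UPF1 IP, against 26.9, 17.9 and 48.4 CPM in pre-IP. Its log2 fold change was 1.70 (SE 0.38, adjusted p = 0.00461, edgeR quasi-likelihood test), and 0.996 (adjusted p = 0.0796) with the trend over GC content removed. All 5 markers of the embryonic kidney line were detected, with summed counts of 178 to 258 in p-UPF1 IP libraries and 41 to 80 in pre-IP libraries. Of 16 markers of blood, liver, fibroblasts, muscle and epidermis, 11 were at 0 in every library, and all 16 together had 7 to 14 counts in p-UPF1 IP and 0 to 6 in pre-IP.

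Throughout, CPM values are scaled by TMM, a scaling that takes most genes as unchanged, and a log2 fold change is p-UPF1 IP over pre-IP. The TMM factors were 1.53 to 2.04 in p-UPF1 IP libraries and 0.469 to 0.672 in pre-IP libraries, so the scaling bears on every direction given. The median log2 fold change of the 8070 genes tested was 0.10 with TMM and 1.63 with library totals alone. Read against all counts, without TMM, the members together made up more of each p-UPF1 IP library than of any pre-IP library. Both groups come from cells with the same treatment, so a gene said to rise or fall differs between the libraries and not in its expression.

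Of the 76 members, 75 had at least 1 count and 62 had enough counts to be tested, 39 MRPL and 23 MRPS. With TMM scaling more members fell than rose, while with library totals alone 10 MRPL and 6 MRPS genes rose and 0 fell. In that fit most of all genes tested rose past the threshold and few fell, so the members rose less often than all genes. Past the threshold with TMM, 13 of 62 fell, 11 MRPL and 2 MRPS, and 2 of 62 rose, both MRPL (edgeR quasi-likelihood test, Benjamini-Hochberg adjusted p under 0.05 over all genes tested). Over all genes tested, 10.9% fell, 8.81% rose and 19.7% passed the threshold in either direction. The members' shares were 21.0% lower and 3.23% higher, and their median log2 fold change was -0.70, against 0.10 over all genes. With library totals alone, that median was 0.84, against 1.63 over all genes, so it stayed below the median of all genes but turned positive. By position alone, 6 of 62 members had every p-UPF1 IP library above every pre-IP library (9.68%, against 21.9% of all genes tested). Among these 6, MRPL10, MRPL12 and MRPL4 passed the filter on low counts only through the p-UPF1 IP libraries, where they are high. For 21 of 62, every p-UPF1 IP library lay below every pre-IP library (33.9%, against 17.7%).

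**Figure D1:**
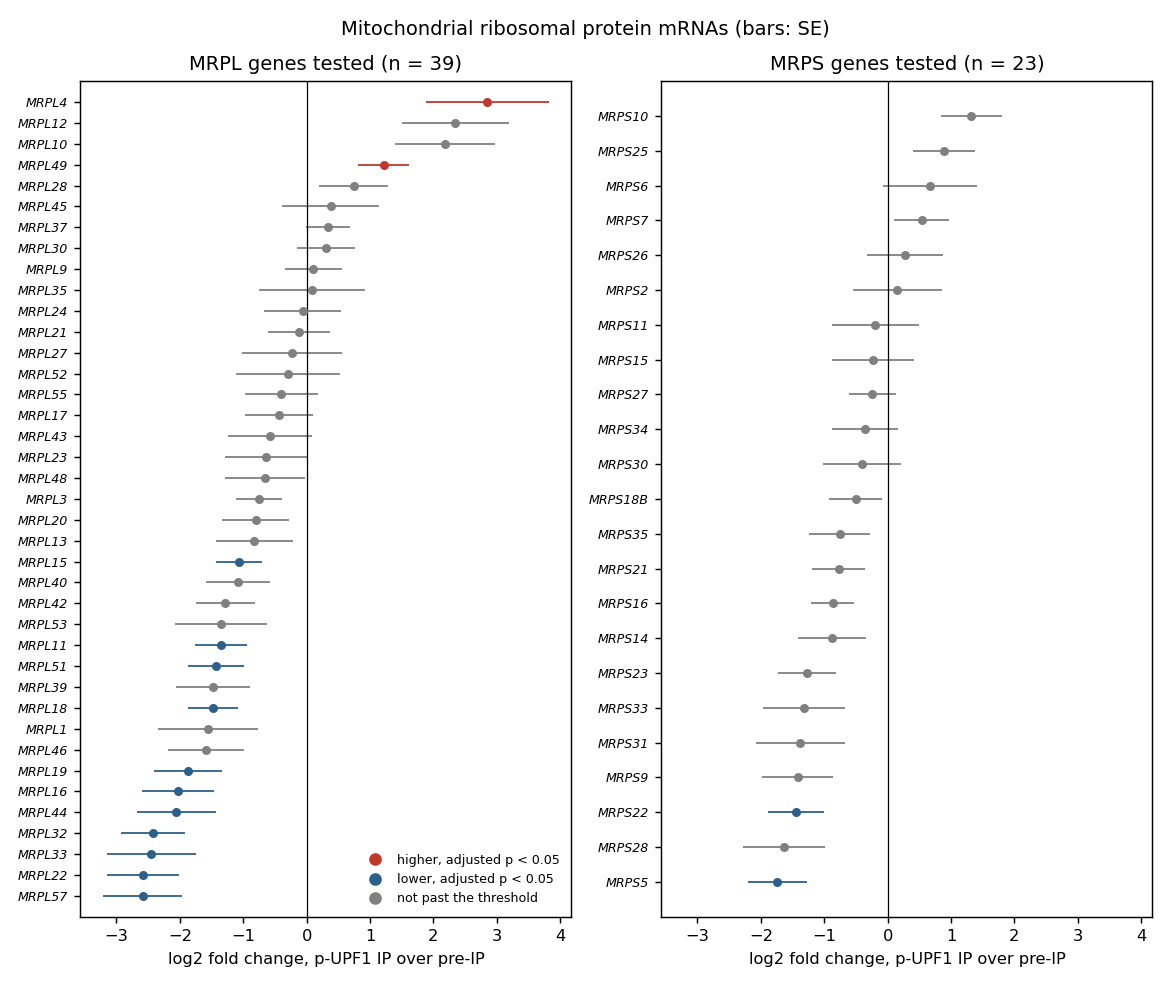
Log2 fold change of p-UPF1 IP over pre-IP for each tested MRPL gene (left panel) and MRPS gene (right panel), with bars for the SE and colour for the call. Of the MRPL genes 10 lie above 0 and 29 below, and of the MRPS genes 6 lie above 0 and 17 below; with library totals alone the medians are 0.82 and 1.06.

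In the large subunit 2 of 39 genes tested rose (5.13%) and 11 fell (28.2%), with a median log2 fold change of -0.75. In the small subunit 0 of 23 rose and 2 fell (8.70%), with a median of -0.51. Over all genes tested 8.81% rose and 10.9% fell, so the share of MRPS genes that fell was near that of all genes. For the MRPS genes an unadjusted p under 0.05 was had by 1 higher and 6 lower genes, DESeq2 called 1 higher and 2 lower, and limma-voom 0 higher and 5 lower. Over all 8070 genes tested these numbers were 1396 and 1349, 826 and 957, and 651 and 1031. The difference between the subunits was not tested. Grouped by ancestry instead, 37 members with a bacterial counterpart were tested, of which 1 rose (2.70%) and 9 fell (24.3%), with a median of -0.64. Of 23 tested mitochondria-specific members, 1 rose (4.35%) and 3 fell (13.0%, near the share of all genes), with a median of -0.76. The 2 other tested members, MRPL57, which fell, and MRPS18B, were assigned to neither group.

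MRPL22 and MRPL4 both belong to the exit tunnel of the large subunit, through which the new chain leaves. MRPL22, the counterpart of bacterial L22 in the tunnel wall, had 6.72, 5.46 and 7.83 CPM in p-UPF1 IP, against 21.8, 64.5 and 39.7 CPM in pre-IP. Its groups did not overlap, and its log2 fold change was -2.58 (SE 0.56, adjusted p = 0.00407). MRPL4, the counterpart of bacterial L4, which also reaches the tunnel, had 42, 34 and 25 counts in p-UPF1 IP, against 3, 0 and 0 counts in pre-IP. It was thus seen in a single pre-IP library, and the ratio of its TMM-scaled level was 7.07, with an exact 95% interval of 2.35 to 34.8 that covers counting error only. MRPL4 passed the filter on low counts only through the p-UPF1 IP libraries, where it is high, so its adjusted p of 0.0475 is no independent support for its direction.

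At the stalk base and stalk, where translation factors dock, MRPL11 fell and its partners had positive fold changes that missed the threshold. MRPL11 had 18.0, 16.7 and 16.8 CPM in p-UPF1 IP, against 46.1, 35.8 and 48.4 CPM in pre-IP. Its log2 fold change was -1.35 (SE 0.41, adjusted p = 0.0281). MRPL10, which anchors the stalk, had 11.6, 16.7 and 24.0 CPM in p-UPF1 IP, against 3.84, 7.16 and 1.73 CPM in pre-IP (log2 fold change 2.18, SE 0.79, adjusted p = 0.0603). The 3 libraries of each group did not overlap for MRPL10, but the pre-IP values rest on 6 counts in all. MRPL12, the stalk protein itself, had 49, 51 and 68 counts in p-UPF1 IP, against 0, 2 and 5 counts in pre-IP (log2 fold change 2.35, SE 0.84, adjusted p = 0.0585). MRPL10 passed the threshold without pre-IP replicate 4 (log2 fold change 2.59, adjusted p = 0.0484) and MRPL12 without pre-IP replicate 7 (log2 fold change 3.51, adjusted p = 0.0310), and DESeq2 called both (adjusted p = 0.0406 and 0.0405). The library left out was in each case the one with the gene's highest pre-IP CPM. Both also passed it with no filter on low counts and with library totals alone. MRPL12 passed it too with the trend over length removed and with a replicate block. In the remaining fits they missed the threshold, with an adjusted p of up to 0.256 for MRPL10 and 0.308 for MRPL12. Both passed the filter on low counts only through the p-UPF1 IP libraries, where they are high, so none of these p-values is independent support for their direction.

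The lowest fold change among the tested members belonged to MRPL57, a small protein of the large subunit. It had 2.75, 5.82 and 9.51 CPM in p-UPF1 IP, against 25.6, 21.5 and 57.0 CPM in pre-IP. Its log2 fold change was -2.59 (SE 0.63, adjusted p = 0.00818), and 5 named pseudogene copies could share its reads. MRPL32 and MRPL33 are small proteins with bacterial counterparts, and MRPL32 is trimmed by the m-AAA protease before it joins the ribosome. MRPL32 had 10.4, 4.37 and 12.9 CPM in p-UPF1 IP, against 55.0, 60.9 and 32.8 CPM in pre-IP (log2 fold change -2.42, SE 0.51, adjusted p = 0.00301). MRPL33 had 1.22, 7.64 and 6.71 CPM in p-UPF1 IP, against 38.4, 14.3 and 27.6 CPM in pre-IP (log2 fold change -2.45, SE 0.71, adjusted p = 0.0219). In all 3 genes every p-UPF1 IP library lay below every pre-IP library.

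MRPL44, a large subunit protein with an RNase III-like fold, had 8.55, 4.37 and 5.59 CPM in p-UPF1 IP, against 17.9, 28.6 and 32.8 CPM in pre-IP. MRPL44 averaged 6.17 ± 2.15 CPM in p-UPF1 IP and 26.5 ± 7.69 CPM in pre-IP (SD, n = 3 each), with a log2 fold change of -2.05 (edgeR adjusted p = 0.0279). MRPL16 and MRPL19 are counterparts of bacterial L16 and L19. MRPL16 averaged 9.25 ± 4.17 CPM in p-UPF1 IP and 37.5 ± 20.5 CPM in pre-IP (SD, n = 3 each), with a log2 fold change of -2.03 (edgeR adjusted p = 0.0198). MRPL19 averaged 9.79 ± 4.41 CPM in p-UPF1 IP and 35.4 ± 8.26 CPM in pre-IP (SD, n = 3 each), with a log2 fold change of -1.87 (edgeR adjusted p = 0.0219). None of these 3 genes had overlapping groups.

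The other large subunit genes that fell were MRPL18, MRPL51 and MRPL15. MRPL18, the counterpart of bacterial L18, had 20.2, 25.5 and 13.4 CPM in p-UPF1 IP, against 46.1, 57.3 and 63.9 CPM in pre-IP (log2 fold change -1.48, SE 0.40, adjusted p = 0.0152). MRPL51, a mitochondria-specific protein, had 20.2, 13.8 and 22.4 CPM in p-UPF1 IP, against 32.0, 43.0 and 76.0 CPM in pre-IP (log2 fold change -1.43, SE 0.44, adjusted p = 0.0297). MRPL51 lies beside NCAPD2, a condensin subunit gene that overlaps it on the opposite strand and that rose (log2 fold change 1.16, adjusted p = 0.0289). MRPL15, the counterpart of bacterial L15, had 25.4, 31.7 and 24.0 CPM in p-UPF1 IP, against 48.6, 60.9 and 62.2 CPM in pre-IP (log2 fold change -1.07, SE 0.36, adjusted p = 0.0458). With library totals alone, the log2 fold changes were positive and not past the threshold for MRPL11 (0.17), MRPL51 (0.14), MRPL18 (0.03), MRPL15 (0.47) and, of the small subunit, MRPS22 (0.06).

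**Figure D2:**
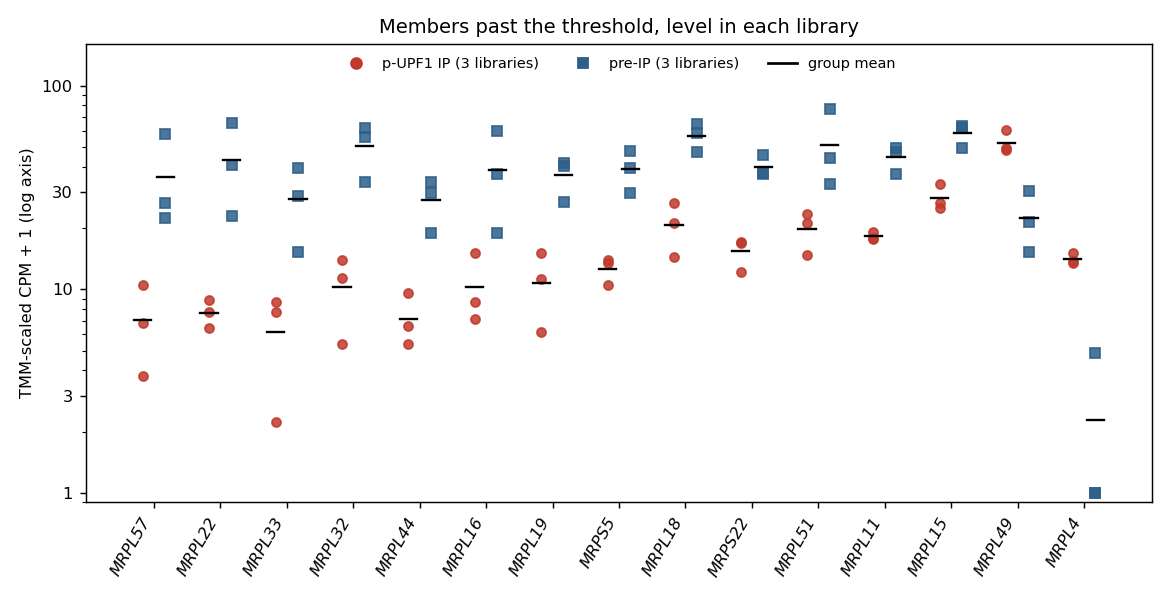
Level of each of the 15 members past the threshold in every library (TMM-scaled CPM + 1, log axis), with p-UPF1 IP as circles left of pre-IP as squares, lines for group means and genes ordered by log2 fold change. For the 13 that fell, every p-UPF1 IP library lies below every pre-IP library; with library totals alone, the fold changes of MRPL11, MRPL51, MRPL18, MRPL15 and MRPS22 turn positive.

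MRPL49, a mitochondria-specific protein of the large subunit, was the other member that rose. It had 59.3, 48.1 and 47.0 CPM in p-UPF1 IP, against 20.5, 14.3 and 29.4 CPM in pre-IP. MRPL49 averaged 51.4 ± 6.80 CPM in p-UPF1 IP and 21.4 ± 7.57 CPM in pre-IP (SD, n = 3 each), with a log2 fold change of 1.21 (SE 0.40, edgeR adjusted p = 0.0414). FAU and SYVN1 overlap it on the opposite strand, and neither passed the threshold. FAU, which encodes a ribosomal protein fused to a ubiquitin-like one, was at -1.05 on the log2 scale (adjusted p = 0.124), and SYVN1, an ER ubiquitin ligase, at -0.092 (adjusted p = 0.925).

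In the small subunit the members past the threshold were MRPS5 and MRPS22. MRPS5, the counterpart of bacterial S5, had 9.47, 12.4 and 12.9 CPM in p-UPF1 IP, against 38.4, 28.6 and 46.7 CPM in pre-IP (log2 fold change -1.74, SE 0.47, adjusted p = 0.0148). MRPS22, a mitochondria-specific protein, had 15.9, 16.0 and 11.2 CPM in p-UPF1 IP, against 44.8, 35.8 and 36.3 CPM in pre-IP (log2 fold change -1.44, SE 0.44, adjusted p = 0.0298). In both genes every p-UPF1 IP library lay below every pre-IP library. MRPS28 had 3.67, 6.19 and 16.2 CPM in p-UPF1 IP, against 21.8, 28.6 and 29.4 CPM in pre-IP, a log2 fold change of -1.64 that missed the threshold (adjusted p = 0.0842). At the other end, MRPS10, the counterpart of bacterial S10, had 35.4, 32.4 and 33.0 CPM in p-UPF1 IP, against 11.5, 10.7 and 17.3 CPM in pre-IP. Its groups stood apart, and its log2 fold change of 1.32 (SE 0.48) missed the threshold at an adjusted p of 0.0585. MRPS10 passed it without pre-IP replicate 7, its highest pre-IP library (1.60, adjusted p = 0.0432), and by DESeq2 (1.36, adjusted p = 0.0399). It also passed with no filter on low counts, with library totals alone and with the trend over GC removed. In the remaining fits MRPS10 missed the threshold, with an adjusted p of up to 0.216. MRPS25 (0.89, adjusted p = 0.214) and MRPS6 (0.67, adjusted p = 0.566) had the next highest log2 fold changes of the small subunit.

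The most counted members did not pass the threshold, apart from MRPL49, MRPL18 and MRPL15. MRPL37, a mitochondria-specific protein, was the most counted member in each p-UPF1 IP library, with 63.5, 58.6 and 55.9 CPM in p-UPF1 IP, against 34.5, 60.9 and 50.1 CPM in pre-IP. Its groups overlapped and its log2 fold change was 0.34 (adjusted p = 0.526). MRPL3, the counterpart of bacterial L3, had 49.2, 23.7 and 49.8 CPM in p-UPF1 IP, against 67.8, 60.9 and 76.0 CPM in pre-IP (log2 fold change -0.75, adjusted p = 0.152). MRPS16, the counterpart of bacterial S16, had 31.2, 34.9 and 45.9 CPM in p-UPF1 IP, against 67.8, 85.9 and 53.6 CPM in pre-IP (log2 fold change -0.87, adjusted p = 0.0847). MRPS7, the counterpart of bacterial S7, had 45.5, 45.5 and 38.6 CPM in p-UPF1 IP, against 26.9, 10.7 and 46.7 CPM in pre-IP (log2 fold change 0.54, adjusted p = 0.409). The log2 fold changes of MRPS21 (-0.77, adjusted p = 0.204), MRPS18B (-0.51, adjusted p = 0.424) and MRPS27 (-0.24, adjusted p = 0.700) were also not past the threshold, and their groups overlapped.

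Per length, as mean CPM per kilobase of 1 annotated transcript a gene, the order of levels differed between the fractions. MRPL37 (37.5), MRPL21 (31.3) and MRPL3 (28.1) had the highest levels per kilobase in p-UPF1 IP. The highest levels per kilobase in pre-IP were those of MRPL18 (57.1), MRPL42 (55.3) and MRPL22 (53.6). Over the 76 members the median level per kilobase was 9.48 in p-UPF1 IP and 14.6 in pre-IP. Across the 76 members, log2(CPM + 1) correlated at Pearson r = 0.762 to 0.838 between p-UPF1 IP libraries and 0.407 to 0.588 between pre-IP libraries, and at 0.296 to 0.412 between a p-UPF1 IP and a pre-IP library. These are correlations across genes, which are not independent replicates. The median member had 24.5 to 40.5 counts in p-UPF1 IP libraries, against 5 to 14 counts in pre-IP libraries, so the pre-IP values carry the larger counting error.

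Taken over all counts, the members held a larger share of the p-UPF1 IP libraries, and taken over protein-coding counts alone they did not. MRPL genes held 0.111%, 0.0970% and 0.153% of all counts in p-UPF1 IP, against 0.0722%, 0.0506% and 0.0805% in pre-IP. MRPS genes held 0.0709%, 0.0721% and 0.0969% of all counts in p-UPF1 IP, against 0.0445%, 0.0297% and 0.0452% in pre-IP. Every p-UPF1 IP share was above every pre-IP share, by a ratio of means of 1.78 for MRPL and 2.01 for MRPS genes. Of protein-coding counts alone, MRPL genes held 0.185% ± 0.0175 in p-UPF1 IP and 0.216% ± 0.0186 in pre-IP (SD, n = 3 each). MRPS genes held 0.124% ± 0.00923 of protein-coding counts in p-UPF1 IP and 0.127% ± 0.00544 in pre-IP (SD, n = 3 each). On that denominator the groups overlapped for both subunits.

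**Figure D3:**
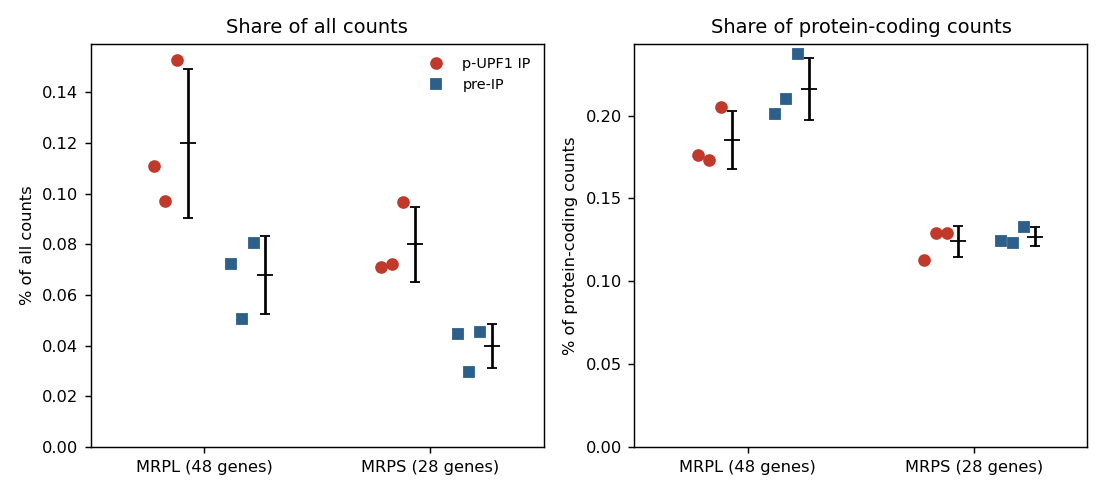
Percent of all counts (left panel) and of protein-coding counts (right panel) in MRPL and MRPS genes, per library, with p-UPF1 IP as circles left of pre-IP as squares and bars for the mean ± SD (n = 3 each). Against all counts every p-UPF1 IP library lies above every pre-IP library, and against protein-coding counts the groups overlap.

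GC content ran with the fold change among the members. Over the 62 tested members, transcript GC content and log2 fold change correlated at Pearson r = 0.451 and Spearman rho = 0.455, against r = 0.202 and rho = 0.195 over 7679 tested protein-coding genes. All points share the same 6 libraries, and no p is given. The filter on low counts shaped this set, since 6 of the members passed it only through the p-UPF1 IP libraries. Of these, MRPL4 (64.9% GC), MRPL12 (64.6%), MRPS26 (63.4%) and MRPL28 (60.3%) are high in GC, and MRPL10 (51.8%) and MRPS6 (48.9%) are not. How far this bears on the correlation was not tested. The 21 members lowest in GC (38.3% to 45.8%) had a median log2 fold change of -1.32, with 0 higher and 5 lower. The 21 members between 46.4% and 52.4% had a median of -0.77, with 0 higher and 7 lower. The 20 members highest in GC (52.7% to 64.9%) had a median of -0.15, with 2 higher and 1 lower. Protein-coding genes of the same 3 ranges had medians of -0.11, 0.02 and 0.52, each above that of the members. Their calls were not counted by GC range, and over all genes tested 8.81% rose and 10.9% fell. With the trend over GC removed from every library, 12 of the 13 lower calls remained, MRPL15 being lost (adjusted p = 0.0781), and both higher calls were lost, MRPL49 at 0.94 (adjusted p = 0.117) and MRPL4 at 2.05 (adjusted p = 0.165). In that fit MRPS10 passed the threshold, with a log2 fold change of 1.41 (adjusted p = 0.0445).

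**Figure D4:**
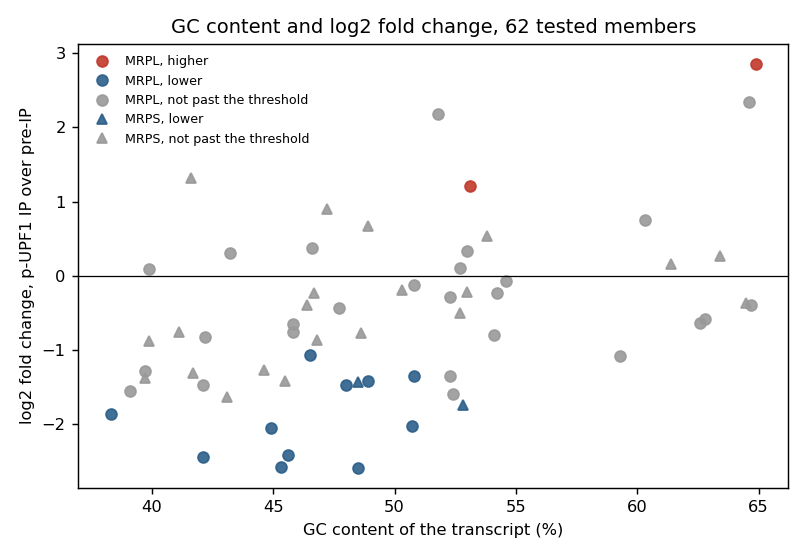
Log2 fold change of p-UPF1 IP over pre-IP against the GC content of the transcript for the 62 tested members, with circles for MRPL genes, triangles for MRPS genes and colour for the call. Both members that rose lie in the upper GC range (52.7% to 64.9%), and 12 of the 13 that fell lie below it. MRPL4, which rose, passed the filter on low counts only through the p-UPF1 IP libraries. Over all genes tested 8.81% rose and 10.9% fell.

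Calls were spread over the range of transcript lengths. The transcripts of the tested members are short, with a median of 1462 bases, against 3388 bases over all genes tested, and over protein-coding genes length correlated with the log2 fold change at r = 0.351 (n = 7679). Among the 62 members it did so at r = 0.159. The 21 shortest members (518 to 1127 bases) had a median log2 fold change of -0.58, with 0 higher and 4 lower, against a median of -1.02 over protein-coding genes in that range. The 21 members of 1147 to 1640 bases had a median of -1.07, with 1 higher and 5 lower, against -0.45 over protein-coding genes in that range. The 20 members of 1652 to 5621 bases had a median of -0.42, with 1 higher and 4 lower, against 0.16. Of protein-coding genes in these ranges, from shortest to longest, 36.5%, 16.3% and 5.82% were lower, and 2.21%, 2.48% and 7.31% higher. With the trend over length removed from every library, 4 of the 13 lower calls remained (MRPL57, MRPL19, MRPL32 and MRPS5), the 9 others being lost at adjusted p = 0.0525 to 0.430, and all 13 kept their sign. MRPL49 missed the threshold in that fit with a log2 fold change of 1.24 (adjusted p = 0.0528), against 1.21 without the removal, while MRPL4 remained. Of the 8012 genes in that fit, 340 were higher and 652 lower. Of the 62 members, 2 were higher (MRPL4 and, newly, MRPL12) and 5 lower, MRPS23 being new. The median was then -0.20 for the MRPL genes and -0.42 for the MRPS genes, against -0.07 over all genes in that fit.

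Many calls were lost when a library was left out. The median log2 fold change of the 13 lower members was -1.87 with all libraries and -1.99 to -1.55 with each library left out in turn. Calls over all genes were 711 higher and 880 lower with all libraries, 273 and 518 without p-UPF1 IP replicate 3, 333 and 617 without replicate 6, and 312 and 596 without replicate 9. Without p-UPF1 IP replicate 3, 2 of the 13 lower calls remained, those of MRPL22 and MRPL32, and the 11 others had adjusted p = 0.0522 to 0.163. Without p-UPF1 IP replicate 6 or 9, 8 lower calls were lost each time, at adjusted p = 0.0531 to 0.126 and 0.0584 to 0.167. Without pre-IP replicate 1, 4 or 7, the numbers lost were 4 (adjusted p = 0.0556 to 0.0885), 2 (0.0549 to 0.0732) and 6 (0.0570 to 0.181). Of the 2 higher calls, neither remained without p-UPF1 IP replicate 3 (adjusted p = 0.151 to 0.196), 6 (0.110 to 0.138) or 9 (0.104 to 0.153) or without pre-IP replicate 4 (0.0611 to 0.0872). MRPL49 was also lost without pre-IP replicate 1 (adjusted p = 0.0876) and MRPL4 without pre-IP replicate 7 (adjusted p = 0.112). Each of the 15 kept its sign without each library in turn. They were picked by the full fit and their groups did not overlap, so neither these signs nor the medians of the 13 test the direction. MRPL22 and MRPL32 kept their calls in each of these 6 fits, while the trend over length took the call of MRPL22 (adjusted p = 0.0690) and library totals alone took both (adjusted p = 0.180 and 0.228).

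Of the 14 members that did not pass the filter on low counts, MRPS24, a small subunit protein gene, had 0 counts in every library, and an annotated readthrough gene that overlaps it on the same strand, URGCP-MRPS24, also had 0. In a fit with no filter on low counts, MRPL14, the counterpart of bacterial L14, had 4, 14 and 2 counts in p-UPF1 IP, against 10, 6 and 31 counts in pre-IP, with a log2 fold change of -3.32 (SE 0.73, edgeR adjusted p = 0.000196). MRPL41 had 2, 7 and 9 counts in p-UPF1 IP, against 5, 2 and 20 counts in pre-IP, with a log2 fold change of -2.46 (edgeR adjusted p = 0.0496). The 11 others with counts did not pass the threshold in that fit. Of the tested members, 6 passed the filter only through the p-UPF1 IP libraries: MRPL28, MRPL10, MRPL12, MRPL4, MRPS26 and MRPS6.

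The genes that lie with or inside members limit what a count can be credited to, since strand settings and multi-mapping rules were not stated in any source used here. In the annotation 10 members hold a small RNA gene, 17 overlap a gene on the same strand, 36 overlap one on the opposite strand and 33 have a named pseudogene copy. The 17 members with none of these gave 14 tested genes, of which 0 rose and 2 fell (MRPL16 and MRPL18), with a median log2 fold change of -0.38. Over all genes tested, 8.81% rose and 10.9% fell, with a median of 0.10. MRPS22 holds a small RNA gene, RF01873, on its own strand, and MRPS5 has 2 named pseudogene copies. MRPL33 overlaps BABAM2 on the same strand.

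Genes whose proteins act with the members were read against the same background of 8.81% higher and 10.9% lower. Of 7 tested mitoribosomal proteins whose symbols fall outside the MRPL and MRPS pattern, 0 rose and 2 fell (28.6%), with a median of -0.78 (at an unadjusted p under 0.05, 0 higher and 4 lower; DESeq2 and limma-voom each 0 higher and 2 lower). MRPS18C, a small subunit protein, had 6.11, 5.10 and 7.83 CPM in p-UPF1 IP, against 38.4, 50.1 and 24.2 CPM in pre-IP (log2 fold change -2.53, SE 0.56, adjusted p = 0.00425). CHCHD1, also of the small subunit, had 5.80, 6.19 and 8.95 CPM in p-UPF1 IP, against 40.9, 32.2 and 29.4 CPM in pre-IP (log2 fold change -2.31, SE 0.54, adjusted p = 0.00653). In both, every p-UPF1 IP library lay below every pre-IP library. Of 11 tested mitochondrial translation factors, 0 passed the threshold (at an unadjusted p under 0.05, 1 higher and 1 lower; DESeq2 0 and 0; limma-voom 0 and 1), with a median of -0.30. Of 22 tested mitoribosome assembly factors, 1 rose and 0 fell, with a median of -0.03 (at an unadjusted p under 0.05, 2 higher and 1 lower; DESeq2 and limma-voom each 1 higher and 0 lower). That gene was DHX30, an RNA helicase of mitochondrial RNA granules, with 102, 86.6 and 109 CPM in p-UPF1 IP, against 43.5, 43.0 and 46.7 CPM in pre-IP (log2 fold change 1.15, SE 0.31, adjusted p = 0.0156). With the trend over GC removed, DHX30 was at 0.47 (adjusted p = 0.313). It also missed the threshold with the trend over length removed, and without p-UPF1 IP replicate 3 (adjusted p = 0.0780) or 9 (adjusted p = 0.0769). For comparison, 43 of 74 tested cytosolic ribosomal protein genes fell (58.1%) and 0 rose (1 at an unadjusted p under 0.05, 1 by DESeq2, 0 by limma-voom), with a median of -1.22 and a median transcript of 922 bases. The difference between cytosolic and mitochondrial ribosomal protein genes was not tested.

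Promoter windows of RefSeq (GRCh38.p14, the first listed window of each gene, 250 bases before to 50 after the start) were found for 67 of the 76 members. The ETS motif CCGGAAG, on either strand, was in 27 of them (40.3%), against 14.5% of 14739 protein-coding genes and 10.7% of all 27305 genes with a window. The YY1 motif AAGATGGCG was in 13 (19.4%), against 2.85% of protein-coding and 1.85% of all genes, and the TATA motif TATAAA in 2 (2.99%), against 9.25% of protein-coding genes. By call, the ETS motif was in 0 of 2 higher members, 4 of 12 lower members, 18 of 41 tested members not past the threshold and 5 of 12 members not tested. The YY1 motif was in 0 of 2, 2 of 12, 6 of 41 and 5 of 12 of the same groups. Members past the threshold that hold a match are shown by 30 bases around the first one, 5′ to 3′ on the gene's strand, with capitals for the letters of the motif on either strand, so that a reader can see the motif in its place. A match is a description of these letters and not a binding site.

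MRPL16 (chr11:59810766-59810795, minus strand, ETS): agtgaacacaaCTTCCGGccccactgagcg
MRPL51 (chr12:6493363-6493392, minus strand, ETS): gcgctccaaaaCTTCCGGcaggcggaccgg
MRPL33 (chr2:27771700-27771729, plus strand, ETS): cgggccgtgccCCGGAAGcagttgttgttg
MRPS22 (chr3:139343896-139343925, plus strand, ETS): tctataagggcCCGGAAGaCTTCCGGccct
MRPL22 (chr5:154941093-154941122, plus strand, YY1): gtagcgggagggcgaAAGATGGCGgcggca
MRPL32 (chr7:42932143-42932172, plus strand, YY1): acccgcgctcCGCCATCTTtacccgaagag

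In MRPS22 the 2 ETS matches stand back to back on opposite strands, and its window holds 3 in all. The YY1 match of MRPL22 lies after the start, and that of MRPL32 lies far before the start. The windows of MRPL4 and MRPL49, the members that rose, held none of these motifs.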

How the data were processed

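The authors deposited raw read counts by gene symbol in 1 table with a column for each library. Software named in the submitters' processing notes was STAR 2.5.2b, cutadapt 1.15 and Subread 1.5.0p3 (featureCounts), and the build was hg19. Per the labels' protocols RNA was depleted of rRNA, ligated to adapters, amplified by PCR and size-selected; no molecular identifiers are described, so intervals cover counting error only. Tests were made with edgeR 4.0.16 (R 4.3.3, quasi-likelihood F-test) after TMM scaling on genes that passed filterByExpr at min.count 10, with Benjamini-Hochberg adjustment at 0.05. The SE is the size of the log2 fold change over the root of F. The procedure was checked on simulated counts.

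The members and lists were chosen with earlier results of these data known. The text names every member past the threshold, the 5 most counted and the 3 highest and 3 lowest log2 fold changes of each subgroup, members with no count, UPF1, and related genes past the threshold; others were named after their values were seen. Transcript length and GC content were matched by symbol to GENCODE release 29 on GRCh38, not hg19; the promoter sequences alone carry coordinates, on the build of RefSeq. Tried as alternatives were scaling by library totals alone, by RLE or by upper quartile, no filter, a minimum count of 30, DESeq2 1.42.0, limma-voom (limma 3.58.1), a robust fit, the 10 most counted genes of any library left out, a length trend removed, protein-coding counts as denominator and each library left out; removal of a GC trend and a replicate block were added after seeing the data.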

Additional observations from a re-analysis of the deposited data

How the results depend on the processing

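The groups share no replicate number (3, 6 and 9 against 1, 4 and 7), and the labels do not say that the numbers run in sets of 3. Deviations from the group means correlated at 0.092, 0.172 and 0.102 within the sets 3 and 1, 6 and 4, and 9 and 7, and each library correlated best with its own set, a hint from the data and not the design. A fit with the replicate block by set, added after seeing the data, gave 2 higher and 9 lower MRPL genes and 0 higher and 2 lower MRPS genes. Of the 2 higher and 11 lower MRPL calls (median log2 fold change -0.75), the counts and median became 10, 0 and 0.82 with library totals alone. In that fit most of all genes tested were higher (median 1.63), a larger share than of the MRPL or of the MRPS genes. A minimum count of 30, which tests 12 MRPL genes, gave 1 higher, 5 lower and a median of -0.52. Higher MRPL calls were 4 with no filter and with DESeq2, 1 with limma-voom and with the robust fit, and 0 with the GC trend removed (median -1.11). With the length trend removed 3 MRPL genes were lower (median -0.20). Each library left out in turn gave 0 to 2 higher, 2 to 12 lower and medians of -0.97 to -0.67.

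The 0 higher and 2 lower MRPS calls (median -0.51) became 6, 0 and 1.06 with library totals alone, where most genes tested were higher. They were 1 higher and 1 lower with no filter, 1 lower with a minimum count of 30, 1 higher with DESeq2, 5 lower with limma-voom and 1 higher with the GC trend removed (median -0.73). Each library left out in turn gave 0 to 1 higher, 0 to 4 lower and medians of -0.65 to -0.52. RLE and upper-quartile scaling and leaving out the most counted genes kept each of these counts within 1.5 times.

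With library totals alone the sign turned for MRPL11 (0.17), MRPL51 (0.14), MRPL18 (0.030), MRPL15 (0.47), MRPS22 (0.064), MRPL3 (0.82), MRPS16 (0.72), MRPS21 (0.75), MRPS27 (1.27) and MRPS18B (1.06). That of MRPS27 also turned with the length trend removed (0.18) and without pre-IP replicate 1 (0.080; each library left out in turn gave -0.35 to 0.080). Over protein-coding counts the shares were 0.185% in p-UPF1 IP and 0.216% in pre-IP for MRPL, and 0.124% and 0.127% for MRPS. Beyond the fewer genes or libraries in a fit, the causes were not tested. Pre-IP depth, with a median of 5 to 14 counts a member, limits every fold change.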
